A study of Mus musculus with 7 samples.

Results

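The Vegfc, Gpm6a and Hand2 domain is a 5 Mb stretch of mouse chromosome 8, taken as all binding events positioned from 55000000 to 60000000 on the mm9 genome build. It held 99 FRA2 events, 67 JUND events and 28 SOX2 events, 194 of the 137595 events listed in the 3 tables. The stretch was chosen by its FRA2 and JUND reads, selected on a shift from the Q7 to the Q111 line. The Q111 against Q7 values of FRA2 and JUND are therefore given as a description and carry no test.

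Chromatin immunoprecipitation followed by sequencing (ChIP-seq) counts DNA fragments bound by a protein. It was run on STHdhQ111 cells (genotype HdhQ111/Q111, huntingtin with an expanded glutamine tract) and STHdhQ7 cells (genotype HdhQ7/Q7, a short tract). Both are striatal lines from day 14 embryos of strain 129SvEv/CD1, used below passage 15, grown at 33 °C. A move to 39 °C, lasting 2 days, halted division before harvest. Both lines have FRA2, JUND and IgG (control antibody) libraries, and Q7 has a SOX2 library. Each library pools 2 replicates, so each line has 1 value per antibody and no spread between replicates can be given. There is 1 line per genotype, so the line and the huntingtin genotype cannot be told apart. Nor can more binding per cell and binding in more cells. Reads in listed events came to 3498922 (Q111) and 3340554 (Q7) for FRA2, 1609483 (Q111) and 1660158 (Q7) for JUND, and 1193914 for SOX2 in Q7.

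FRA2 (encoded by Fosl2) and JUND pair through leucine zippers to form AP-1, a dimeric transcription factor that binds mostly at enhancers far from gene starts. SOX2 is a transcription factor of neural progenitors. Vegfc encodes a growth factor that acts on lymphatic and blood vessel cells, Gpm6a a membrane glycoprotein of growing neurites, and Hand2 a basic helix-loop-helix factor of the developing heart, limbs and sympathetic neurons. In the RefSeq gene order of a later build (GRCm38.p6), 24 protein-coding genes run from Vegfc to Hand2, 12 of them named only by a Gm number. The named genes after Vegfc are Spcs3 (a signal peptidase subunit), Asb5, Spata4, Wdr17 and Gpm6a. Then come Adam29, Glra3 (a glycine receptor subunit), Hpgd (which breaks down prostaglandins), Cep44 (a centrosome protein), Fbxo8 and Hand2. That the stretch holds the 3 genes is part of its definition. Gene positions on mm9 were not used here, so this was not checked and no event is assigned to a gene or to an exon, intron or promoter, and the sequence under the events is not shown.

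The events were not spread evenly. They fell into 3 blocks separated by gaps of over 0.5 Mb without an event of any table, a division made after the values were seen. The proximal block ran from 55049107 to 55810003 and held 31 FRA2, 19 JUND and 9 SOX2 events. The middle block ran from 58532854 to 59174444 and held 47 FRA2, 31 JUND and 6 SOX2 events. The distal block ran from 59750760 to 59990618 and held 21 FRA2, 17 JUND and 13 SOX2 events. Between the proximal and the middle block no event was listed over 2.72 Mb. The tables have 30 event-free intervals of at least that length genome-wide.

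FRA2 had 5811.7 reads in Q111 against 2476.5 reads in Q7 summed over the stretch. After scaling of the libraries this is a 2.27-fold ratio of Q111 over Q7 (95% counting interval 2.17 to 2.38). Of the 99 FRA2 events, 66 were at least 2-fold higher in Q111 (66.7%, Wilson interval 56.9 to 75.2%), 11 were at least 2-fold higher in Q7 and 22 were neither. Over all 64579 FRA2 events, 24.2% were at least 2-fold higher in Q111 and 22.6% at least 2-fold higher in Q7. The median log2 fold was 1.63 in the stretch (1.48 to 1.996), against 0.12 on the remaining chromosome 8 and 0.00 over all FRA2 events. Single events ranged from -2.57 to 5.04.

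JUND had 2849.6 reads in Q111 against 1539 reads in Q7 over the stretch, a scaled ratio of 1.76 (1.66 to 1.88). Of the 67 JUND events, 39 were at least 2-fold higher in Q111 (58.2%, 46.3 to 69.3%), 13 at least 2-fold higher in Q7 and 15 neither. The shares over all 46583 JUND events were 18.7% higher in Q111 and 25.0% higher in Q7. The median JUND log2 fold was 1.35 (0.72 to 2.35) in the stretch, -0.03 on the remaining chromosome 8 and -0.13 over all JUND events. When libraries were scaled by control reads instead, which lowers every JUND log2 fold by 0.66, 31 events (46.3%) were higher in Q111 and 17 higher in Q7, and over all JUND events 10.3% were higher in Q111. Of the JUND events past the 2-fold limit with that scaling, 64.6% in the stretch and 19.2% over all events were higher in Q111. With the main scaling these were 75% and 42.8%. Among non-overlapping 5 Mb windows with at least 20 events, the stretch ranked 6 of 490 by its FRA2 median and 5 of 464 by its JUND median, a rank that its choice fixes in part.

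The shift was concentrated in the middle block. FRA2 was at least 2-fold higher in Q111 at 46 of its 47 events, with 3130.1 reads in Q111 against 503 in Q7 and a ratio of 6.03 (5.48 to 6.64). JUND was at least 2-fold higher in Q111 at 28 of 31 events, with 1555 reads in Q111 against 285 in Q7 and a ratio of 5.19 (4.57 to 5.91). Without the middle block the stretch had a median log2 fold of 0.38 (-0.17 to 1.36) for FRA2 and -0.06 (-1.05 to 0.91) for JUND. The JUND median thus changed sign, but both intervals include 0.

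**Figure D1:**
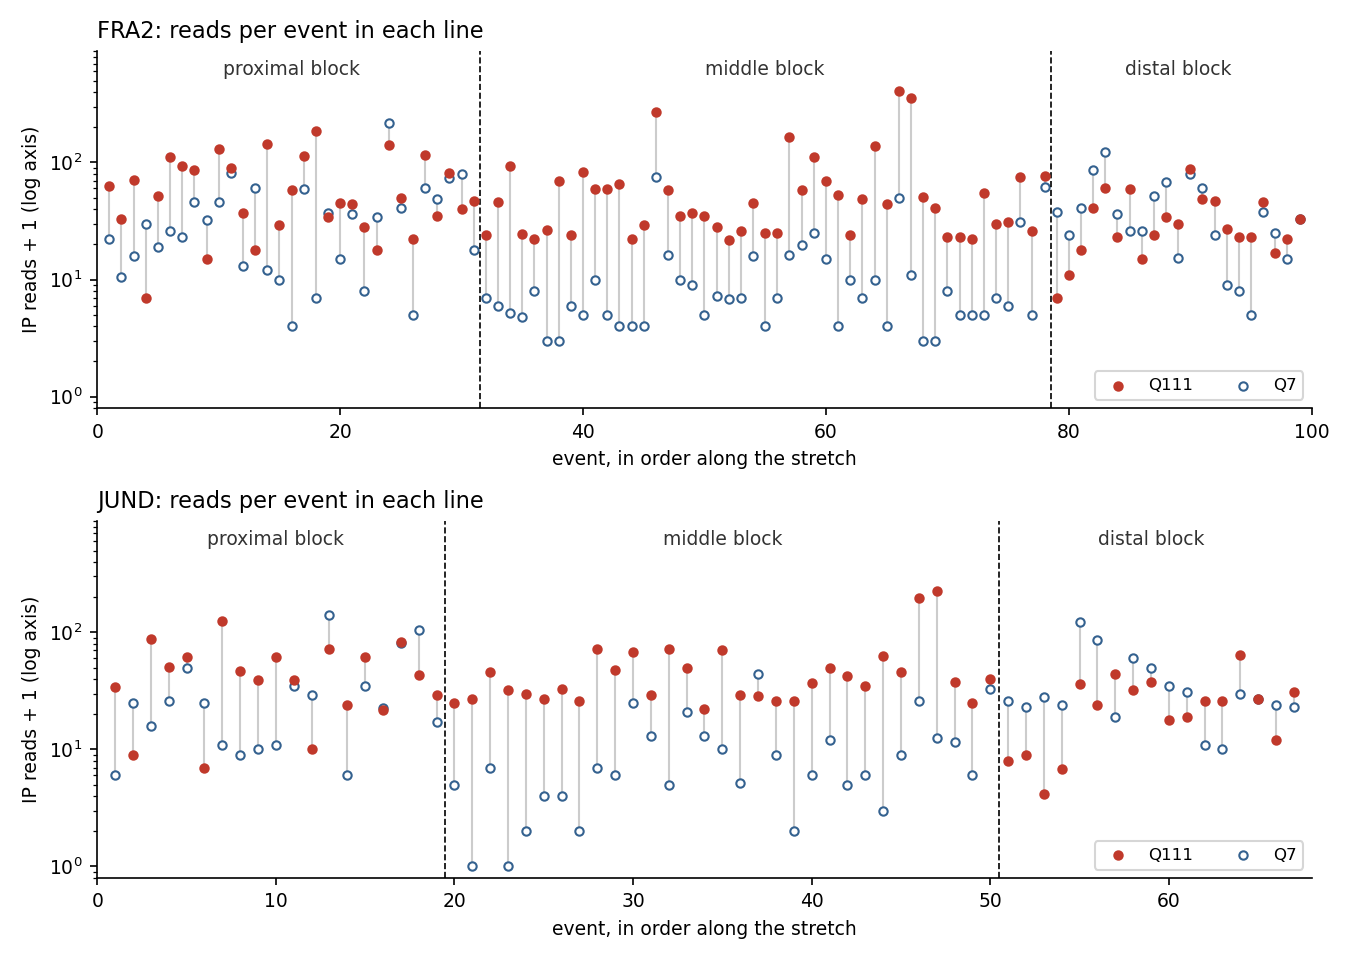
IP reads plus 1 (log axis) of each FRA2 event (upper panel) and JUND event (lower panel) in order along the stretch, in Q111 (filled red) and Q7 (open blue). Dashed lines part the 3 blocks, and in the middle block 46 of 47 FRA2 events and 28 of 31 JUND events were at least 2-fold higher in Q111.

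In the 0.5 Mb bins, 5 of 10 held events in both tables. The first bin (55000000 to 55499999) had 937.8 FRA2 reads in Q111 against 423.6 in Q7, and 369 JUND reads in Q111 against 152 in Q7. Both proteins were higher in Q111 there, by 2.14-fold (1.91 to 2.41) and 2.31-fold (1.91 to 2.81). The second bin (55500000 to 55999999) had 1066.8 FRA2 reads in Q111 against 738.9 in Q7 and 517.6 JUND reads in Q111 against 489.5 in Q7. The FRA2 ratio was 1.40 (1.27 to 1.54), and the JUND ratio of 1.01 (0.89 to 1.14) had an interval that includes 1. No FRA2 or JUND event was listed in the bins from 56000000 to 58499999.

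The bin from 58500000 to 58999999 held 44 FRA2 events, all at least 2-fold higher in Q111, with 2956 reads in Q111 against 408 in Q7. Its 30 JUND events had 1516 reads in Q111 against 253 in Q7, and 28 passed the 2-fold limit. The ratios were 7.02 (6.33 to 7.80) for FRA2 and 5.70 (4.99 to 6.54) for JUND. The next bin held 3 FRA2 events (174 reads in Q111, 95 in Q7) and 1 JUND event (39 in Q111, 32 in Q7). In the last bin, which is the distal block, the summed reads of both proteins were lower in Q111. FRA2 had 677 reads in Q111 against 811 in Q7 there (ratio 0.81, 0.73 to 0.90), and JUND 408 in Q111 against 612.7 in Q7 (ratio 0.63, 0.56 to 0.72). Single events were mixed: 9 of 21 FRA2 and 5 of 17 JUND events had a log2 fold above 0. The intervals of the median log2 fold, -1.06 to 0.92 for FRA2 and -1.84 to 0.37 for JUND, include 0. Bin medians were above 0 in 4 and below 0 in 1 of the 5 occupied bins for each protein.

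**Figure D2:**
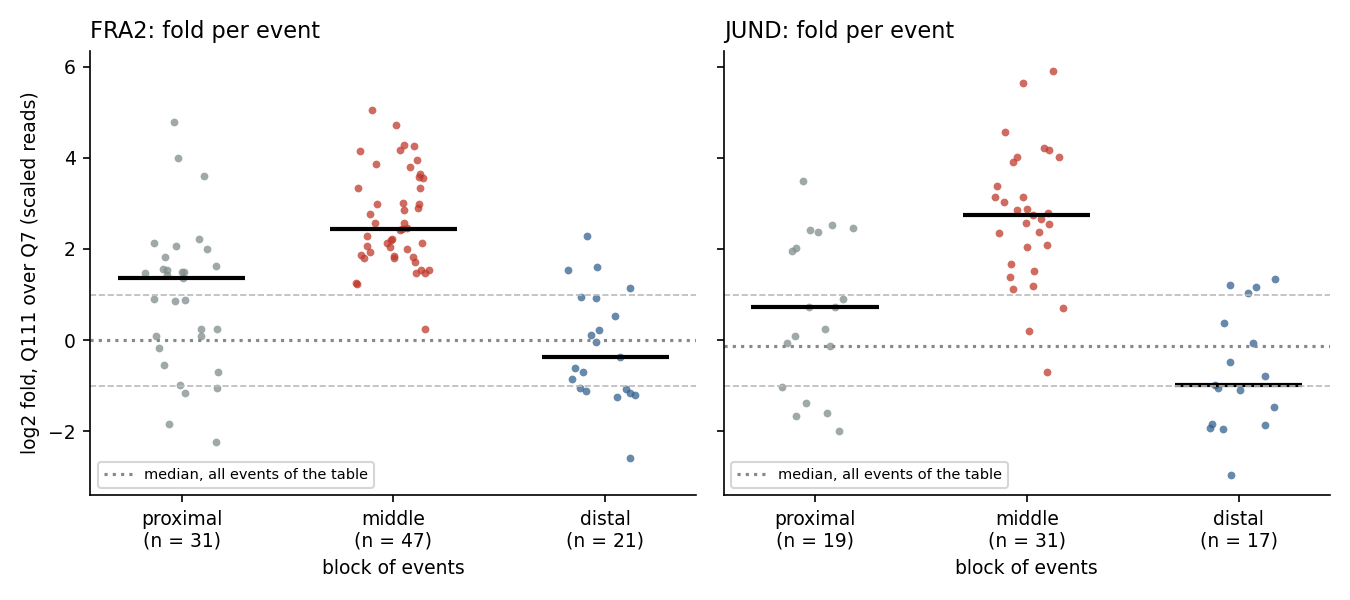
Log2 fold of Q111 over Q7 (scaled reads, pseudocount 0.5) of each FRA2 event (left) and JUND event (right) by block, with the block median as a bar, 2-fold limits dashed and the median of all events of the table dotted. The medians were 1.36, 2.45 and -0.37 for FRA2 and 0.72, 2.74 and -0.99 for JUND in the proximal, middle and distal block, and the top 2 JUND points have 0 reads in Q7.

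The nearest event outside each end had a larger fold than the nearest one inside, towards Q111 or towards Q7. The last FRA2 event below the stretch, at 54944940, had 65 reads in Q111 against 8 in Q7, and the first inside, at 55049127, had 62 in Q111 against 21 in Q7. The last FRA2 event inside, at 59986638, had 32 reads in each line, and the first above, at 60003454, had 37 in Q111 against 2 in Q7. The last JUND event below, at 54730341, had 6 reads in Q111 against 57 in Q7, and the first inside, at 55049107, had 33 in Q111 against 5 in Q7. The last JUND event inside, at 59990618, had 30 reads in Q111 against 22 in Q7, and the first above, at 60003451, had 57 in Q111 against 3 in Q7. The 0.5 Mb below held 7 FRA2 events with a median log2 fold of 0.59 (-4.23 to 2.90). The 0.5 Mb above held 19 with a median of -0.91 (-1.49 to 0.66). At least 2-fold higher in Q111 were 3 (42.9%) and 4 (21.1%) of them, against 24.2% over all FRA2 events. For JUND the 0.5 Mb below held 3 events with a median of -0.36 (-3.22 to 0.17), and the 0.5 Mb above held 12 with a median of -0.38 (-1.17 to 0.85). At least 2-fold higher in Q111 were 0 and 2 (16.7%) of them, against 18.7% over all JUND events. All these intervals include 0.

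The strongest FRA2 site of the stretch was at 58918421, with 403 reads in Q111 against 49 in Q7, a 7.90-fold ratio (5.91 to 10.95). JUND 9 bp away, at 58918430, had 196 reads in Q111 against 25 in Q7 (7.33-fold, 4.90 to 11.8). This site was marked present in both lines for both proteins and had a SOX2 event 23 bp from the FRA2 position. About 4 kb further on, FRA2 at 58922661 had 355.8 reads in Q111 against 10 in Q7, a 32.9-fold ratio (18.5 to 72.5). JUND at 58922686 had 226.5 reads in Q111 against 11.5 in Q7 (17.99-fold, 10.1 to 35.2). The caller did not mark this second site present in Q7 for either protein.

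The other middle-block events farthest to Q111 had few Q7 reads. FRA2 at 58562556 had 68 reads in Q111 against 2 in Q7 (26.5-fold, 8.77 to 277.4), and at 58549477 it had 92.8 in Q111 against 4.2 in Q7 (19.2-fold, 8.51 to 84.4). FRA2 at 58871676 had 136 reads in Q111 against 9 in Q7 (13.9-fold, 7.49 to 32.7). JUND at 58902210 had 62 reads in Q111 against 2 in Q7, a 23.8-fold ratio (7.83 to 248.9). Q7 control reads at these 4 positions were 3.6, 2.3, 2.4 and 2.3, so Q7 reads were below the control at the first and the last of them.

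At 58555982 JUND had 31 reads in Q111 against 0 in Q7, which is at least 9.83-fold higher when Q7 is set to a floor of 3 reads per library, with a lower counting limit of 7.53-fold. At 58549172 it had 25.8 in Q111 against 0 in Q7, which is at least 8.18-fold higher with the same floor, with a lower counting limit of 6.24-fold. At both events the counting limit is the lower of the bounds. With both events at the floor bounds the JUND medians of the stretch and of the middle block stay as given. At the counting limits the stretch median also stays. The counting limit at 58549172 (log2 2.64) lies below the middle-block median of 2.74, which would then be lower. JUND at 58819805 had 70.5 reads in Q111 against 4 in Q7 (15.0-fold, 6.22 to 62.8). Summed with a neighbour closer than 200 bp, its log2 fold was 2.21 in place of 3.91.

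FRA2 at 58757143, a strong site in both lines, had 266.8 reads in Q111 against 73.9 in Q7, a smaller ratio of 3.48 (2.69 to 4.58). The last site of the block was close to equal: FRA2 at 59174444 had 75 reads in Q111 against 61 in Q7, and JUND at 59174440 had 39 in Q111 against 32 in Q7. Their intervals of 0.84 to 1.70 and 0.71 to 1.91 include 1.

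Few events of the middle block were marked in Q7. All 47 FRA2 and all 31 JUND events were marked present in Q111, against 5 FRA2 (10.6%) and 4 JUND events (12.9%) in Q7. Over all events at least 2-fold higher in Q111 the shares marked present in Q7 were 21.1% for FRA2 and 10.9% for JUND, so for JUND the block was close to other such events. The median FRA2 event of the block held 43 reads in Q111 against 6 in Q7, and the median JUND event 36 in Q111 against 5 in Q7. Q7 reads were at or below the Q7 control reads at 11 of 47 FRA2 events (23.4%) and 9 of 31 JUND events (29.0%), against 11.0% and 13.99% over all events at least 2-fold higher in Q111. Every listed event carries the present mark of 1 or both lines, so an event weak in Q7 could be listed only if it was strong in Q111, and low Q7 reads are in part fixed by that.

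The proximal block held events higher in Q111 and events higher in Q7. FRA2 at 55522836 had 184 reads in Q111 against 6 in Q7 (27.5-fold, 13.4 to 82.0), with no control read in either line. FRA2 at 55499659 had 144 reads in Q111 against 11 in Q7 (12.2-fold, 6.88 to 26.0), and JUND at 55499651 had 124 in Q111 against 10 in Q7 (11.3-fold, 6.20 to 25.2). Further on, FRA2 at 55633859 had 139 reads in Q111 against 218 in Q7, a ratio of 0.62 (0.50 to 0.77). JUND there, at 55633856, had 71 reads in Q111 against 139 in Q7 (0.49, 0.36 to 0.65), and a SOX2 event with 51 reads lay at the same base. FRA2 was also lower in Q111 at 55358622, with 17 reads in Q111 against 60 in Q7, and at 55104351, with 6 in Q111 against 29 in Q7. JUND at 55695744 had 81.9 reads in Q111 against 80.8 in Q7, a ratio of 0.96 (0.70 to 1.33). With a neighbour merged its log2 fold was -0.65. Of the block's 31 FRA2 events, 16 were at least 2-fold higher in Q111 (51.6%, 34.8 to 68.0%) and 4 at least 2-fold higher in Q7 (12.9%, 5.13 to 28.9%). Of its 19 JUND events, 7 were at least 2-fold higher in Q111 (36.8%, 19.1 to 59.0%) and 5 at least 2-fold higher in Q7 (26.3%, 11.8 to 48.8%). Over all events the shares higher in Q111 were 24.2% for FRA2 and 18.7% for JUND, and those higher in Q7 were 22.6% and 25.0%. These differences were not tested.

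In the distal block 7 of 21 FRA2 events (33.3%, 17.2 to 54.6%) and 8 of 17 JUND events (47.1%, 26.2 to 69.0%) were at least 2-fold higher in Q7. Over all events these shares were 22.6% for FRA2 and 25.0% for JUND. Neighbouring events are not replicates, so the shares are a description and their difference was not tested. FRA2 at 59841913 had 60 reads in Q111 against 122 in Q7 (0.48, 0.34 to 0.65), and JUND at 59841917 had 23 in Q111 against 85 in Q7 (0.26, 0.15 to 0.41). JUND at 59840014 had 35 reads in Q111 against 122 in Q7 (0.28, 0.18 to 0.40). The event farthest to Q7 for FRA2, at 59750782, had 6 reads in Q111 against 37 in Q7 (0.17, 0.05 to 0.38). For JUND it was 59835509, with 3.2 in Q111 against 26.9 in Q7 (0.13, 0.02 to 0.34). In the same block 4 FRA2 (19.0%) and 4 JUND events (23.5%) were at least 2-fold higher in Q111, against 24.2% and 18.7% over all events. With scaling by control reads 3 FRA2 (14.3%) and 0 JUND events were, against 17.9% and 10.3% over all events.

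Many FRA2 and JUND events were listed at the same places. JUND was found within 100 bp at 53 of the 99 FRA2 events (53.5%, 43.8 to 63.0%), against 56.8% on the remaining chromosome 8 and 55.3% over all FRA2 events. The share depended on reads: it was 13.3% (5.31 to 29.7%) for stretch events of 20 to 40 reads, 57.1% (40.9 to 72.0%) for 40 to 80 reads and 85.3% (69.9 to 93.6%) for 80 reads or more. Over all FRA2 events these shares were 18.9%, 40.2% and 89.4%. The interval of the middle class starts just above 40.2%, on 35 events.

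The stretch held 51 mutual nearest FRA2 and JUND pairs. Both proteins were at least 2-fold higher in Q111 at 26 (51.0%) and at least 2-fold higher in Q7 at 7 (13.7%). Over all 35176 pairs these shares were 15.9% and 18.2%. No pair of the stretch had opposite calls, and only 6 of all pairs had. The signs matched at 48 pairs of the stretch (94.1%), against 84.8% over all pairs. The log2 folds of FRA2 and JUND had a Pearson r of 0.92 over the 51 pairs. The pairs share 4 libraries and neighbouring sites, so this is a description without a p. The same r over all 35176 pairs of the series was 0.89. The median distance between paired positions was 12 bp. At pairs of the middle block JUND had 0.53 reads per FRA2 read in Q111 and 0.61 in Q7. In the distal block the values were 0.69 in Q111 against 0.88 in Q7, and over all pairs 0.50 in Q111 against 0.53 in Q7.

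**Figure D3:**
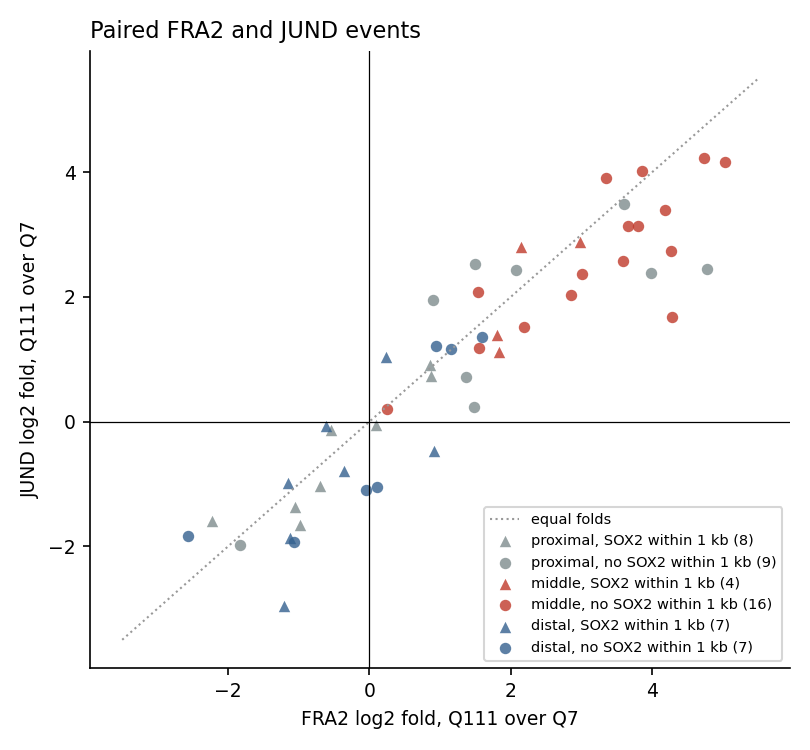
JUND log2 fold against FRA2 log2 fold (Q111 over Q7) at the 51 paired sites, coloured by block, with triangles where a SOX2 event lay within 1 kb of the FRA2 position. All 20 middle pairs have positive folds for both proteins, and the 7 pairs at least 2-fold higher in Q7 for both lie in the proximal (3) and distal (4) blocks.

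SOX2 events, mapped in Q7 and not used to choose the stretch, were sparse. The 28 events give 5.60 per Mb (exact Poisson interval 3.72 to 8.09), against 12.7 per Mb on the remaining chromosome 8 and 10.3 over all chromosomes. FRA2 and JUND were sparse as well, with 19.8 and 13.4 events per Mb, against 25.2 and 18.2 over all chromosomes. The long interval without events counts in these densities. SOX2 had 11.8 events per Mb in the proximal block (5.41 to 22.5), 9.35 in the middle block (3.43 to 20.4) and 54.2 in the distal block (28.9 to 92.7). Block ends were set by events, which raises the density within a block.

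The 2 SOX2 events with the most reads were in the distal block, at 59880192 (194.9 reads) and 59835531 (191.1 reads). Each had FRA2 and JUND within 100 bp, and the JUND event beside the second is the one farthest to Q7, named above. SOX2 at 59839988 (79 reads) lay 26 bp from the JUND event at 59840014, with 35 JUND reads in Q111 against 122 in Q7. SOX2 at 59884272 (80 reads) had no AP-1 event within 3 kb. In the middle block the strongest SOX2 event, at 58823365 with 71 reads, lay 57 bp from the JUND event at 58823308. That JUND event had 27.7 reads in Q111 against 42.8 in Q7 and was the single event of the block with a negative JUND log2 fold (-0.69). It was chosen after its values were seen.

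Of the 28 SOX2 events, 16 had FRA2 or JUND within 100 bp (57.1%, 39.1 to 73.5%), against 69.9% over all SOX2 events, and 23 had one within 1 kb. Seen from AP-1, a SOX2 event lay within 1 kb of 22 of 99 FRA2 events (22.2%, 15.2 to 31.4%), against 35.7% over all FRA2 events. For JUND it was 25 of 67 (37.3%, 26.7 to 49.3%), against 50.3%. In the middle block the shares were 4 of 47 for FRA2 (8.51%, 3.36 to 19.9%) and 7 of 31 for JUND (22.6%, 11.4 to 39.8%). Over all events at least 2-fold higher in Q111 they were 7.77% for FRA2 and 13.9% for JUND, within both intervals, so a low share near SOX2 is not particular to the block.

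The median log2 fold of stretch events with SOX2 within 1 kb was -0.45 for FRA2 and -0.07 for JUND. Without SOX2 within 1 kb it was 1.99 for FRA2 and 2.38 for JUND. This split mixes the blocks: 18 of the 22 FRA2 events near SOX2 lay outside the middle block. For JUND it was 18 of 25. Events higher in Q111 lay mostly away from SOX2 in the whole series too. SOX2 lay within 1 kb of 35.7% of all FRA2 events, but of 7.77% of those at least 2-fold higher in Q111. The JUND values were 50.3% and 13.9%. A contrast in this direction is thus not particular to the stretch. Median folds with and without SOX2 nearby were not computed over all events, so its size cannot be compared. Inside the middle block all 4 FRA2 events near SOX2 were at least 2-fold higher in Q111 (median log2 fold 1.99). Without SOX2 nearby 42 of 43 were (median 2.46). JUND passed the limit there at 5 of 7 events near SOX2 (median 1.39) and at 23 of 24 without (median 2.94). These differences were not tested. SOX2 was mapped in Q7 alone, so SOX2 binding in Q111 was not analysed here.

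Summed over the stretch, control reads were not higher in Q111. Which library the caller used as control is not stated in the sources used here, where IgG is the only control antibody. Many FRA2 and JUND events lie at the same places, so their control values may not be separate observations. At FRA2 events of the stretch they averaged 3.25 per event in Q111 and 3.81 in Q7, a log2 ratio of -0.23, against 0.51 on the remaining chromosome 8 and 0.41 over all FRA2 events. At JUND events of the stretch they averaged 3.72 in Q111 against 3.79 in Q7, a log2 ratio of -0.02, against 0.73 over all JUND events. In the middle block the averages were 2.50 in Q111 against 3.51 in Q7 at FRA2 events, and 2.41 in Q111 against 3.51 in Q7 at JUND events. In this block control reads per event were thus lower in Q111 than in Q7. Their part in the surplus of FRA2 and JUND reads in Q111 was not tested.

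Over all FRA2 events at least 2-fold higher in Q111 the control averages were 4.08 in Q111 against 3.99 in Q7, a log2 ratio of 0.03, and for the 66 in the stretch it was -0.48. For JUND the averages over all such events were 4.42 in Q111 against 3.87 in Q7, a log2 ratio of 0.19, and for the 39 in the stretch it was -0.24. The series-wide ratios of such events were thus slightly above 0, below those over all events and above those of the stretch. The control columns are scaled by the caller, so no counting interval is given, and the part of the control reads in the result was not tested. No event of the stretch had more than 20.5 control reads in Q111 or 12.7 in Q7. Control reads subtracted, the median log2 fold of the FRA2 events was 2.10.

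**Figure D4:**
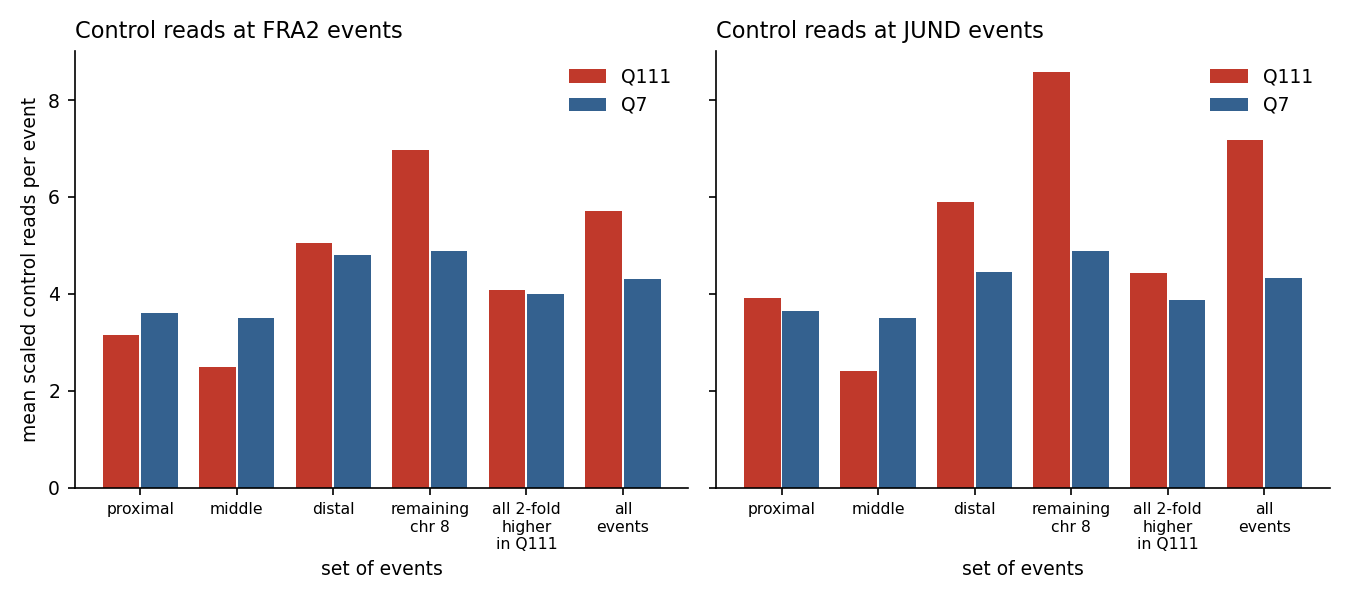
Mean scaled control reads per event in Q111 (red, left bar) and Q7 (blue, right bar) at FRA2 events (left) and JUND events (right) of the 3 blocks, the remaining chromosome 8, all events at least 2-fold higher in Q111 and all events. In the middle block the Q111 bar is the lower one (2.50 in Q111 and 3.51 in Q7 at FRA2 events), while over all FRA2 events it is the higher one (5.71 in Q111 and 4.30 in Q7).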

How the data were processed

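Bowtie 0.12.7 and the mm9 build are named in the submitters' processing notes. Events carry the name of the GPS caller, whose version and settings the sources used here do not give. By their deposited values and per the file headers, IP columns hold expected counts (reads assigned to an event, 78.0% to 89.6% of them whole) and control columns a signal (control reads scaled by the caller). The deposited q-value (−log10) of IP against control was used in 1 alternative. The tables hold 22 more columns of values, not used here.

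Groups came from the sample titles. The fold is Q111 over Q7 reads with a pseudocount of 0.5, divided by the median ratio of events marked present in both lines (log2 0.05 for FRA2, 0.07 for JUND). All listed events passed the minimum of 20 reads. An event counts as higher when at least 2-fold. Fold intervals (95%) come from the Clopper-Pearson limits of the Q111 share of reads, rounded to whole counts, intervals of shares are Wilson, of medians order statistics, of densities exact Poisson. They cover counting error only and no spread between replicates, since replicates are pooled. PCR reads are not independent molecules, so the counting error may be larger than these intervals show. Intervals of shares and medians treat neighbouring events as independent, though events are not replicates, so they carry no test. Densities use the span from the first to the last event of each chromosome. Folds and intervals were run on simulated Poisson reads with every event marked present. The simulation held neither the listing by present mark nor spread between replicates, so it says nothing on either.

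Named events are, per protein, the 5 with most reads, the 5 farthest to Q111 and 3 farthest to Q7 by interval, the top pair of each bin and the top 5 SOX2 events. Values used Python 3.11.15, pandas 2.3.3 and scipy 1.17.1. The stretch and the lists were chosen with earlier results of these data known. The gene order used RefSeq on GRCm38.p6, in which all 3 named genes matched.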

Additional observations from a re-analysis of the deposited data

How the results depend on the processing

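The direction of the stretch medians and sums held under each scaling, and their size did not. Scaling by control reads lowers all FRA2 log2 folds by 0.36 and all JUND log2 folds by 0.66. It gave medians of 1.27 (FRA2) and 0.69 (JUND) and log2 ratios of summed reads of 0.82 and 0.15. The JUND share higher in Q111 was then 46.3%, against 10.3% over all JUND events. Scaling by totals gave a JUND sum ratio of 0.93. A pseudocount of 5 gave a FRA2 median of 1.32. With at least 80 reads the shares were 52.9% and 40%, and the medians 1.197 and 0.24. With control reads subtracted the FRA2 median was 2.10 and the sum ratios 1.32 and 0.92. Events present in both lines, which leave out the largest folds by construction, gave shares of 27.6% (FRA2) and 16.7% (JUND), medians of 0.23 and 0.017, and sum ratios of 0.54 and -0.078, the last reversed. A fold limit of 4 gave 39.4% and 43.3%. Shares over all events were not computed for the 80-read, both-lines and 4-fold settings. The stretch shares at these settings therefore cannot be set against the 24.2% and 18.7% of the main setting. Narrowed by 0.5 Mb at each end, the stretch had shares of 82.8% and 74.4%, medians of 2.14 and 2.37, and sum ratios of 1.71 and 1.35. Widened, the sum ratios were 0.78 and 0.56. Without the middle block, an alternative chosen after seeing the data, shares were 38.5% and 30.6%, medians 0.38 and -0.062, and sum ratios 0.40 and -0.026. The JUND median and sum ratio changed sign there, but their intervals include no change (log2 median -1.05 to 0.91, fold of summed reads 0.91 to 1.06).

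A JUND event was near 71.0% of FRA2 events with at least 40 reads and 85.3% with at least 80. SOX2 density was 1.80 per Mb for events with at least 40 reads and 3 per Mb in the narrowed stretch. In 1 Mb bins, 2 JUND medians were above 0. Of the values of single named events, 180 stayed within their counting interval, 9 moved and no called one changed direction. No paired analysis was possible because replicates are pooled in the deposited libraries, and for the same reason no replicate could be left out. At a median of 59 (FRA2) and 51 (JUND) reads over both lines per event, small folds were not detectable.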
